A study of Mus musculus with 6 samples.

Results

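The IL-1 family cytokines and receptors were described here in sorted cells of the muscularis externa (ME), the muscle layer of the small bowel wall, in mice. The members were the 10 genes Il1a, Il1b, Il18, Il33, Il1rn, Il18bp, Il1r1, Il1rl1, Il1rap and Il1r2, picked by gene symbol from a table of 26110 genes. The study addressed which resident macrophages of the ME drive postoperative ileus, the loss of bowel movement after abdominal surgery, and compared MHCII hi cells without and with the receptor CX3CR1. All cells came from naive, untreated CX3CR1 GFP/+ mice, in which one allele of the Cx3cr1 gene is replaced by green fluorescent protein, so that both populations carried the same heterozygous reporter. Bulk RNA-seq gave 3 libraries for the CX3CR1- and 3 for the CX3CR1+ population of these MHCII hi cells. Muscle layers of 6 mice were pooled in each group, and neither separate pools for the libraries nor the age of the mice are given in the sources used here. The p-values therefore measure the spread between libraries, which may be technical.

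IL-1 alpha and IL-1 beta are alarm cytokines that signal through the receptor IL-1R1 together with the accessory chain IL-1RAcP (Il1rap) and turn on NF-kB through MyD88 and IRAK kinases. The pathway is held in check by IL-1Ra (Il1rn), which occupies the receptor without signalling, and by IL-1R2, a decoy receptor that lacks a signalling tail. IL-33 uses ST2 (Il1rl1) with the same accessory chain, and IL-18, which has a receptor pair of its own, is neutralized by the IL-18 binding protein (Il18bp). In the bowel, IL-1 beta is mainly a product of activated myeloid cells, whereas IL-33 is mainly stored in the nuclei of stromal, endothelial and epithelial cells.

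The values are deposited expression values normalized between libraries, called normalized values below. The libraries held about 5346381 to 17616761 reads assigned to genes, and 3 reads, at or below which no value was taken as measured, corresponded to normalized values of 1.39 to 5.36. The sort marker Cx3cr1 had mean normalized values of 23.6 ± 4.80 in CX3CR1- and 366 ± 17.5 in CX3CR1+ libraries (SD, n = 3 each). The sample labels call the cells dendritic cells, and the study calls them macrophages. All 10 macrophage genes of a marker list were lower in CX3CR1- libraries and summed to 9796 to 11713 there and to 50095 to 55775 in CX3CR1+ libraries. All 8 genes of conventional dendritic cells were higher in CX3CR1- libraries, with sums of 3763 to 4044 and of 222 to 280. Genes of fibroblasts (8 of 8) and epithelium (7 of 7 tested) were higher in CX3CR1- libraries as well, and mitochondrial transcripts took 47.5 to 54.9% of the normalized total there against 18.1 to 21.2%. Over all tested genes, CX3CR1- libraries lay at Euclidean distances of 146 to 162 from each other on the log2 scale, against 94.8 to 101 for CX3CR1+ libraries. CX3CR1- replicate 2 was the farthest from the others of its group, and without it the same numbers of IL-1 family genes were called in each direction. The part of these differences in the results on IL-1 family genes was not tested, and in bulk samples fewer cells of a type and less RNA per cell cannot be told apart.

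The family is spread over few loci in GRCm38. Il1a (chr2:129299610-129309972, minus strand) and Il1b (chr2:129364570-129371139, minus strand) are neighbours, and Il1rn (chr2:24336853-24351494, plus strand) lies elsewhere on the same chromosome. Il1r2 (chr1:40074079-40125231), Il1r1 (chr1:40225080-40317257) and Il1rl1 (chr1:40429570-40465415) belong to a row of 6 receptor genes on the plus strand of chromosome 1. Il1rap (chr16:26581704-26730117, plus strand), Il18 (chr9:50554827-50581840, plus strand), Il18bp (chr7:102014885-102018690, minus strand) and Il33 (chr19:29925114-29960718, plus strand) lie apart from the other members.

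The 120 bases upstream of the RefSeq start sites (GRCm38.p6) are printed for the 5 members that differed between the populations, to show what the start regions of the lower and of the higher genes hold. Capitals mark matches on either strand to the TATA box (TATAAA), a C/EBP site (TTGCNNAA), the core of a PU.1 site (GAGGAA), an AP-1 site (TGANTCA), a cyclic AMP response element (TGACGTCA), an interferon-stimulated response element or the NF-kB consensus. No matches overlapped each other. The first pair of sequences belongs to the genes that were lower in CX3CR1- cells and the others to those that were higher, with both annotated starts of Il33 and the upstream one of Il1r1.
Il1a, chr2:129309973-129310092, minus strand: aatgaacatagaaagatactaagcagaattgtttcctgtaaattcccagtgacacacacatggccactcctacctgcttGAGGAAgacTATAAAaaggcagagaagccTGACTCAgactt
Il1b, chr2:129371140-129371259, minus strand: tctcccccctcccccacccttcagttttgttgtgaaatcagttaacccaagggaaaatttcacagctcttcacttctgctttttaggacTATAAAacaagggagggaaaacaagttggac
Il1r1, chr1:40224960-40225079, plus strand: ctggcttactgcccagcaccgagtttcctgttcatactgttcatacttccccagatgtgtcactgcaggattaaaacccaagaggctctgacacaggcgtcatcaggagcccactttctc
Il1r2, chr1:40085973-40086092, plus strand: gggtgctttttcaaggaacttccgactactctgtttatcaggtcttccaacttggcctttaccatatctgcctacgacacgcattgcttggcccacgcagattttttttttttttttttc
Il33, first start, chr19:29924993-29925112, plus strand: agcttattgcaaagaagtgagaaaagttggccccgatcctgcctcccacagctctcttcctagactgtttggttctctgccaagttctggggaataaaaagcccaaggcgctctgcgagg
Il33, second start, chr19:29945670-29945789, plus strand: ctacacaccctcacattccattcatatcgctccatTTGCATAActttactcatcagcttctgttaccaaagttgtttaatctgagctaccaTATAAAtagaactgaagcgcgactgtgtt

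Il1a and Il1b both held TATAAA, the core of a TATA box, at 32 to 27 bases upstream in Il1a and at 31 to 26 bases upstream in Il1b. Of 32851 mouse promoters of the same length, 6.34% hold these letters. The Il1a window also held GAGGAA, found in 11.6% of promoters, and TGANTCA, found in 3.41%. The windows of Il1r1 and Il1r2 held none of the motifs, and the second start of Il33 held TATAAA and TTGCNNAA (4.15% of promoters). The cyclic AMP response element (1.24% of promoters), the interferon-stimulated response element (1.22%) and the NF-kB consensus (3.65%) matched in no window of a member. These matches are a description of letters in the windows only.

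CX3CR1- and CX3CR1+ libraries were compared across 17812 genes with a mean of at least 10, by limma on log2(value + 1) with Benjamini-Hochberg adjustment over all of them. Genes were called where the adjusted p was at most 0.05 and the log2 fold change was at least 1 in size, and positive values stand for more transcript in CX3CR1- cells. All 10 members passed the filter, although Il33 did so only through the CX3CR1- libraries. Il33, Il1r1 and Il1r2 were called higher in CX3CR1- cells (3 of 10, against 12.2% of all tested genes), Il1a and Il1b were called lower (2 of 10, against 8.15%), and 5 members were not called, beside 20.4% called in either direction over all tested genes. The groups did not overlap for 6 members, 4 of them higher and 2 lower in CX3CR1- libraries, against 20.3% and 19.8% of all tested genes (40.0% together). Il33 is in both counts of higher members, although its CX3CR1+ libraries held 3 reads or fewer. These counts are therefore a description and no test of the family. The median log2 fold change was 0.49 over the members, also with Il33 at the bound given below, and -0.0035 over all tested genes. An exact two-sided permutation test of 3 against 3 libraries cannot go below p = 0.1, which was reached by these 6 members.

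**Figure D1:**
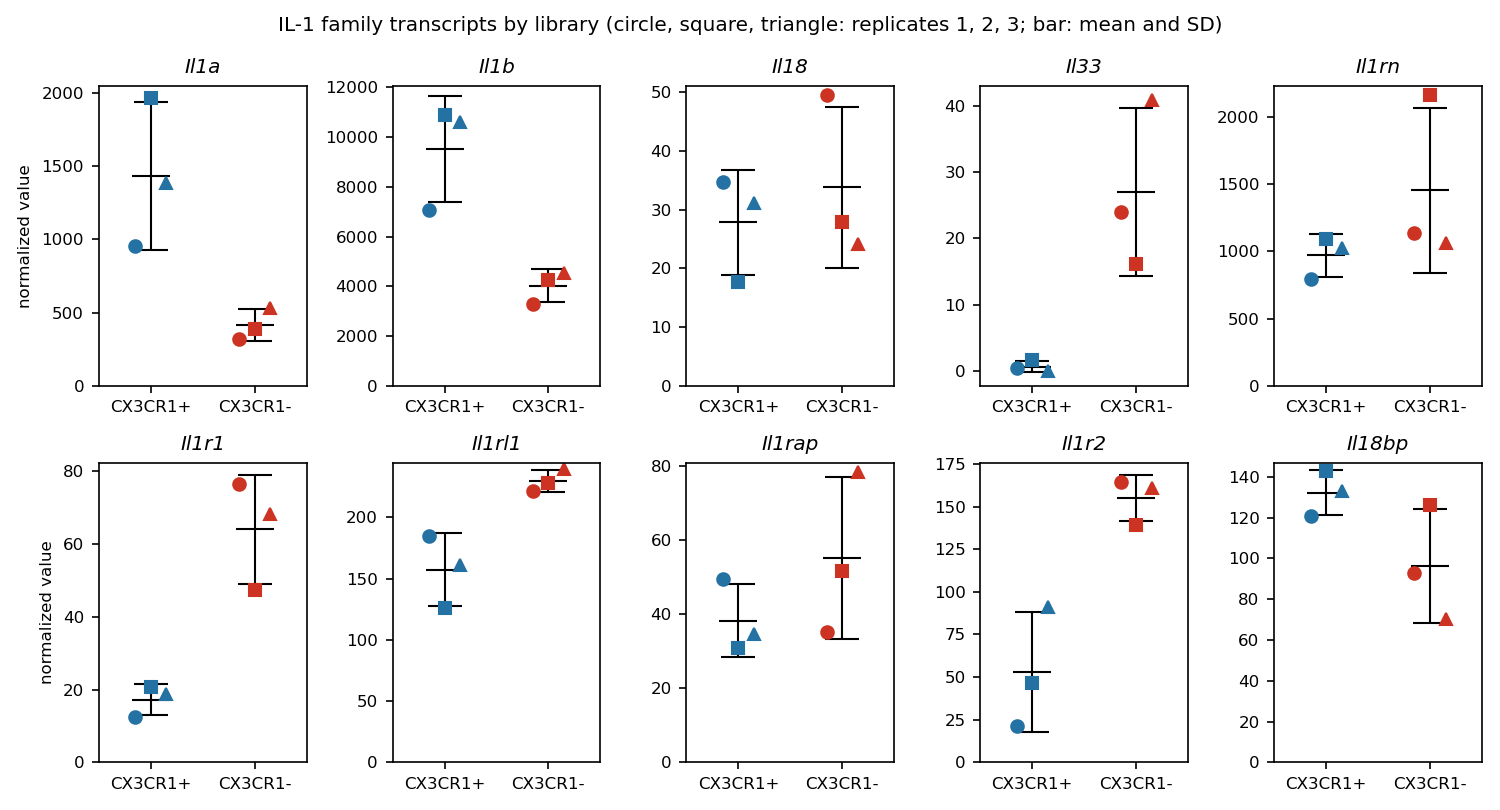
Normalized values (vertical axes from about 0) of the 10 genes in the 3 CX3CR1+ (blue) and 3 CX3CR1- (red) libraries, with the mean and SD as bars and the replicates as circles, squares and triangles. Il1a and Il1b sit lower in all CX3CR1- libraries, Il33, Il1r1, Il1rl1 and Il1r2 sit higher, and the other 4 genes overlap.

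The alarm cytokines Il1a and Il1b were the members that fell in CX3CR1- cells. Il1b was at 3286, 4274 and 4540 in CX3CR1- replicates 1, 2 and 3 and at 7077, 10882 and 10595 in CX3CR1+ replicates 1, 2 and 3. The highest CX3CR1- library was well under the lowest CX3CR1+ library. The means were 4033 ± 660 and 9518 ± 2119 (SD, n = 3 each), so that CX3CR1- cells had a 2.36-fold lower level. For Il1b, the log2 fold change was -1.23 (SE 0.20, adjusted p = 0.00129 from limma). After quantile normalization it was -0.70 (adjusted p = 0.0314), which kept the direction and missed the fold threshold. The antisense gene Il1bos, which overlaps Il1b but shares no 31-mer with it, ranged from 37.5 to 68.6 in CX3CR1- and from 70.5 to 92.8 in CX3CR1+ libraries.

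Il1a was at 322, 392 and 534 in CX3CR1- libraries and at 953, 1965 and 1384 in CX3CR1+ libraries. Again the groups were apart, with the widest spread among CX3CR1+ libraries, whose highest value was 2.06 times the lowest. The means of 416 ± 108 and 1434 ± 507 (SD, n = 3 each) differed 3.45-fold, a log2 fold change of -1.75 (SE 0.28, adjusted p = 0.00126 from limma). Il1a shares 10% of its 31-mers with Gm14023 on the opposite strand, which was at 42.8 to 113 in CX3CR1- and 190 to 324 in CX3CR1+ libraries. The stretch of Il1a that is shared by both genes cannot be assigned to one strand by an unstranded library.

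Il33 was close to absent from CX3CR1+ cells. Its values were 24.0, 16.1 and 40.9 in CX3CR1- libraries, against 0.463, 1.64 and 0 in CX3CR1+ libraries, each of which held 3 reads or fewer. Every CX3CR1- library was above every CX3CR1+ library. The CX3CR1- mean of 27.0 ± 12.7 (SD, n = 3) was 10-fold above the mean of the 3-read levels of the CX3CR1+ libraries. In CX3CR1+ replicate 3 alone that level was 4.25. The limma call (adjusted p = 0.00455) compared log2(value + 1) and used CX3CR1+ values that were not taken as measured. It is therefore no test of this bound. The 8 fibroblast genes summed to 9416, 5280 and 16043 in CX3CR1- replicates 1, 2 and 3, and to 210 to 366 in CX3CR1+ libraries. The 7 tested epithelial genes were also higher in CX3CR1- libraries. Their list summed to 26936, 25174 and 15741 in CX3CR1- replicates 1, 2 and 3, and to 31.3 to 51.8 in CX3CR1+ libraries. The endothelial list summed to 1839, 1333 and 1555 in CX3CR1- replicates 1, 2 and 3, and to 712 to 871 in CX3CR1+ libraries. The part of these cells in the Il33 value was not tested.

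Il18, which myeloid and epithelial cells make as an inactive precursor, did not pass the test. Its values were 49.5, 27.8 and 24.2 in CX3CR1- libraries and 34.7, 17.8 and 31.1 in CX3CR1+ libraries. The groups overlapped, and the means of 33.8 ± 13.7 and 27.9 ± 8.92 (SD, n = 3 each) were closer than the spread within either group. The log2 fold change of Il18 was 0.26, with a 95% interval from -0.73 to 1.24 (adjusted p = 0.724 from limma), which spans a 1.66-fold lower to a 2.36-fold higher level in CX3CR1- cells. The estimate turned negative after quantile normalization (-0.10) and without CX3CR1- replicate 1 (-0.046) or CX3CR1+ replicate 2 (-0.028).

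**Figure D2:**
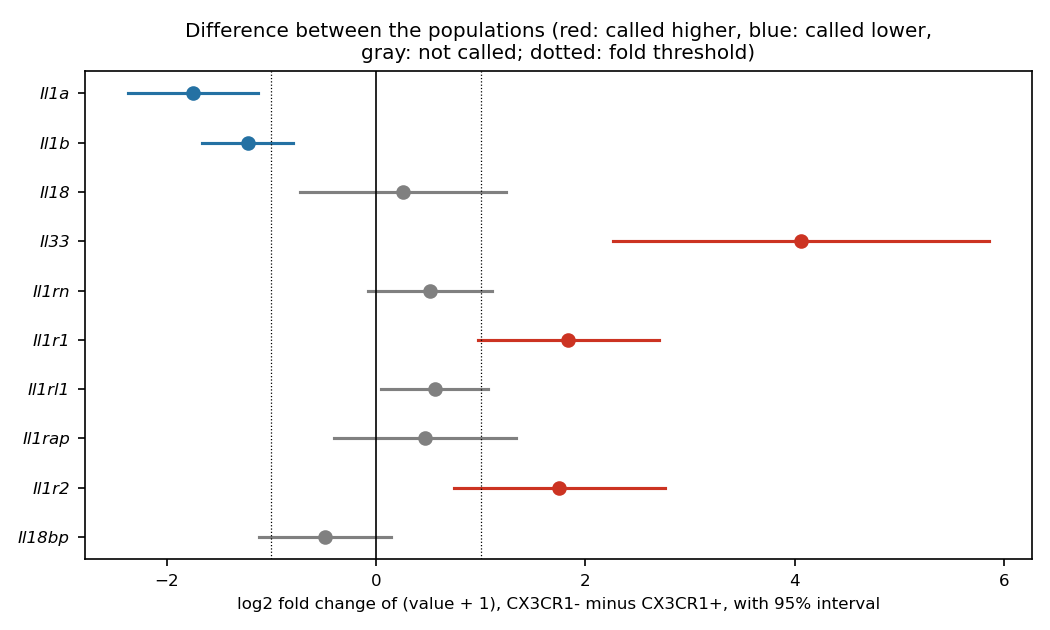
Log2 fold change of value + 1 (horizontal axis, CX3CR1- minus CX3CR1+) with its 95% interval from limma for each of the 10 genes, ordered as ligands, the antagonist Il1rn, receptors and binding protein. Il1a (-1.75) and Il1b (-1.23) lie left of the lower dotted line and Il1r1 (1.84) and Il1r2 (1.75) right of the upper one, and the position of Il33 depends on the pseudocount because its CX3CR1+ values are near 0.

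Among the receptors, the signalling receptor of IL-1 and its decoy were both higher in CX3CR1- cells. Il1r1 was at 76.4, 47.4 and 68.2 in CX3CR1- libraries and at 12.3, 20.7 and 18.7 in CX3CR1+ libraries. Every CX3CR1- value was above every CX3CR1+ value. The means were 64.0 ± 15 and 17.2 ± 4.36 (SD, n = 3 each), a 3.71-fold higher level and a log2 fold change of 1.84 (SE 0.39, adjusted p = 0.00633 from limma). The fibroblast genes summed to 9416, 5280 and 16043 in CX3CR1- replicates 1, 2 and 3, and to 210 to 366 in CX3CR1+ libraries. Fibroblasts respond to IL-1 through this receptor, and the part of their RNA in the Il1r1 value was not tested.

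Il1r2 was at 164, 139 and 161 in CX3CR1- libraries and at 21.4, 46.7 and 91.1 in CX3CR1+ libraries. The CX3CR1- libraries were alike, whereas the highest CX3CR1+ library was at 4.26 times the lowest. The means were 155 ± 13.5 and 53.0 ± 35.3 (SD, n = 3 each), a log2 fold change of 1.75 (SE 0.45, adjusted p = 0.0176 from limma). The call of Il1r2 was lost when the variance prior had no intensity trend (adjusted p = 0.0561 from limma) and without CX3CR1- replicate 1 (0.0558), CX3CR1- replicate 3 (0.0525) or CX3CR1+ replicate 2 (0.0514), with log2 fold changes of 1.71 to 1.77 in these 4 fits. Without CX3CR1+ replicate 3, the highest of its group, the log2 fold change was 2.25 (adjusted p = 0.00492 from limma). Gm37347, a transcript annotated on the same strand within Il1r2, shares no 31-mer with it. It was at 197, 184 and 146 in CX3CR1- and at 31.5, 28.7 and 144 in CX3CR1+ libraries, and CX3CR1+ replicate 3 was the highest of its group for both. Gm38070, which overlaps Il1r1 on the same strand and also shares no 31-mer with it, did not separate the groups. It was at 96.0, 39.3 and 71.8 in CX3CR1- and at 56.4, 94.3 and 103 in CX3CR1+ libraries.

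Il1rl1, the IL-33 receptor ST2, stayed under the threshold. It was at 221, 228 and 239 in CX3CR1- libraries and at 185, 126 and 161 in CX3CR1+ libraries. The groups did not overlap, with means of 229 ± 9.0 and 157 ± 29.8 (SD, n = 3 each), but the log2 fold change of 0.56 (95% interval 0.05 to 1.07) had an adjusted p of 0.109 from limma. ST2 marks mast cells and type 2 innate lymphoid cells. Of 8 mast cell and basophil genes only Ms4a2 was found among the 26110 genes, at no more than 6.81 in any library. Of 8 innate lymphoid genes, 5 were tested, and 2 of them were higher and 1 lower in CX3CR1- cells, beside 12.2% and 8.15% of all tested genes. The part of such cells in the Il1rl1 value was not tested.

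Il1rap, the chain that both IL-1R1 and ST2 need, was at 35.1, 51.8 and 78.6 in CX3CR1- libraries and at 49.5, 30.9 and 34.7 in CX3CR1+ libraries. The groups overlapped, with means of 55.2 ± 21.9 and 38.4 ± 9.80 (SD, n = 3 each). The log2 fold change of Il1rap was 0.47 (95% interval -0.40 to 1.34, adjusted p = 0.436 from limma). Il1r1 passed the threshold and its partner chain did not, and the difference between these 2 genes was not tested.

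The secreted antagonists were not called. Il1rn was at 1138, 2160 and 1059 in CX3CR1- libraries and at 792, 1095 and 1026 in CX3CR1+ libraries. Only CX3CR1- replicate 2 stood clearly above the others, and the lowest CX3CR1- library lay between the CX3CR1+ libraries. The means were 1452 ± 614 and 971 ± 159 (SD, n = 3 each), and the log2 fold change of Il1rn was 0.52 (95% interval -0.08 to 1.11, adjusted p = 0.200 from limma). Without CX3CR1- replicate 2 it was 0.19 (adjusted p = 0.511 from limma), and after quantile normalization it was 0.88 (adjusted p = 0.0379), which passed the p threshold and stayed under the fold threshold.

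Il18bp was at 92.7, 126 and 70.4 in CX3CR1- libraries and at 121, 143 and 133 in CX3CR1+ libraries. CX3CR1- replicate 2 reached into the range of the CX3CR1+ libraries. Numa1 overlaps Il18bp on the opposite strand and shares the most 31-mers with it (1.6% of those of Il18bp are shared with other genes). It was at 278 to 348 in CX3CR1- and at 448 to 488 in CX3CR1+ libraries. The means were 96.4 ± 28.0 and 132 ± 11.0 (SD, n = 3 each), a log2 fold change of -0.49 (95% interval -1.12 to 0.14, adjusted p = 0.250 from limma).

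Levels of different genes were compared per kb of merged exons. In CX3CR1+ cells, Il1b was at 4991 ± 1111 per kb (SD, n = 3), above 99.7% of the tested genes with a length, followed by Il1a at 726 ± 257 and Il1rn at 175 ± 28.7, and the ranges of these 3 genes did not overlap. Il18bp (43.7), Il1r2 (27.8), Il18 (27.0) and Il1rl1 (22.8) came next, each with a range that overlapped its neighbour. Il1rap (3.38) and Il1r1 (2.71), the chains of the functional IL-1 receptor, were near the bottom of the order and overlapped, and Il33 (0.243) was last. With the length of the longest coding transcript, Il1rap was at 8.48 and Il1r1 at 2.96 in CX3CR1+ cells. In CX3CR1+ cells, therefore, the ligand Il1b was among the most abundant transcripts per length while the receptor Il1r1 was above only 12.0% of the tested genes.

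In CX3CR1- cells, Il1b was again first at 2115 ± 346 per kb (SD, n = 3), above 99.5% of the tested genes. Il1rn (262 ± 111) and Il1a (211 ± 54.5) followed with overlapping ranges, where Il1a had been clearly above Il1rn in CX3CR1+ cells. Il1r2 came next at 81.1 ± 7.09 per kb, apart from both neighbours in the order. Il1rl1 (33.3), Il18 (32.8) and Il18bp (31.8) overlapped in turn, as did Il1r1 (10.1), Il33 (9.35) and Il1rap (4.85). With the length of the longest coding transcript, Il1rap (12.2) moved above Il1r1 and Il33 in CX3CR1- cells.

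**Figure D3:**
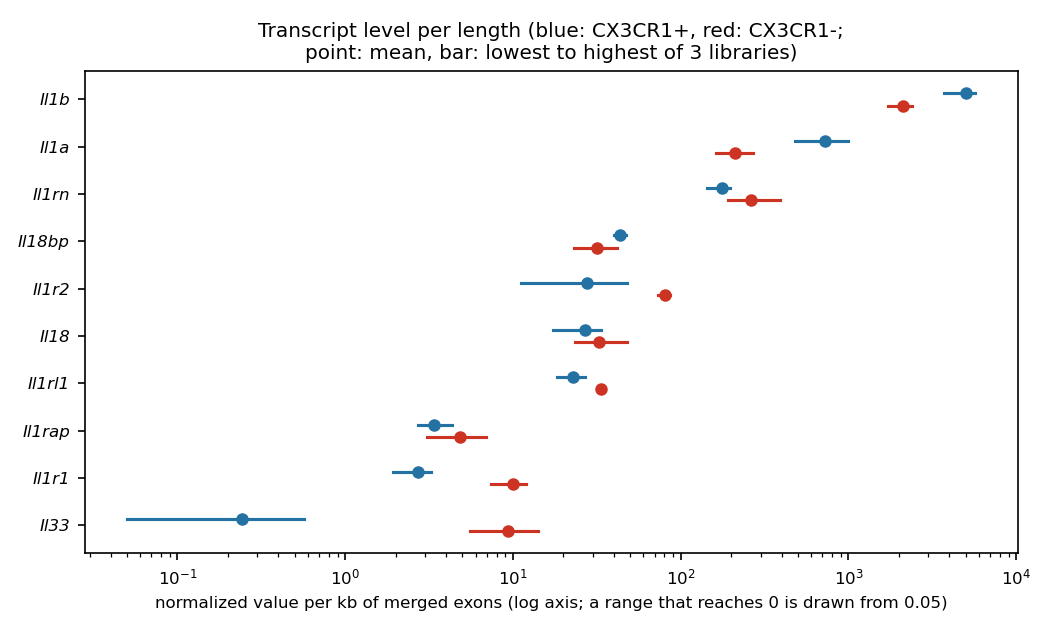
Normalized value per kb of merged exons (log axis) for the 10 genes in CX3CR1+ (blue) and CX3CR1- (red) cells, with the mean as a point and the lowest to highest of 3 libraries as a bar. Il1b is first in both populations, at 4991 and 2115 per kb, and Il1r1 and Il1rap lie at or below 10.1 per kb.

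Ratios within a library do not depend on how libraries were scaled to each other, and they are given as a description with no test. The antagonist Il1rn over the sum of its competitors Il1a and Il1b, per kb, was 0.109, 0.160 and 0.0722 in CX3CR1- libraries and 0.0341, 0.0295 and 0.0296 in CX3CR1+ libraries. All CX3CR1- libraries were higher, with means of 0.114 ± 0.0441 and 0.0311 ± 0.00263 (SD, n = 3 each), a 3.66-fold difference. The agonists still exceeded the antagonist transcript in every library. With the longest coding transcripts the means were 0.186 and 0.0513.

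Il1b over Il1a was 10.2 ± 1.28 in CX3CR1- and 7.11 ± 1.20 in CX3CR1+ libraries (SD, n = 3 each), and the groups did not overlap. The decoy Il1r2 over the signalling receptor Il1r1 was 8.28 ± 1.37 in CX3CR1- and 9.85 ± 5.61 in CX3CR1+ libraries (SD, n = 3 each), which overlapped. The accessory chain Il1rap over Il1r1 was 0.258, 0.612 and 0.645 in CX3CR1- libraries and 2.24, 0.836 and 1.04 in CX3CR1+ libraries, without overlap. With the longest coding transcripts the means of this ratio were 1.16 and 3.16, so which chain was higher in CX3CR1- libraries depended on the length used. Il18bp over Il18 was 1.06 ± 0.456 and 1.79 ± 0.831 (SD, n = 3 each) and overlapped. The ratio of antagonist to agonists separated the populations, and the ratio of decoy to receptor did not. The first ratio has the 2 members called lower as its denominator, and Il1rn alone was not called, so it is no separate result. Among single genes, the groups did not overlap for 40.0% of all tested genes.

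**Figure D4:**
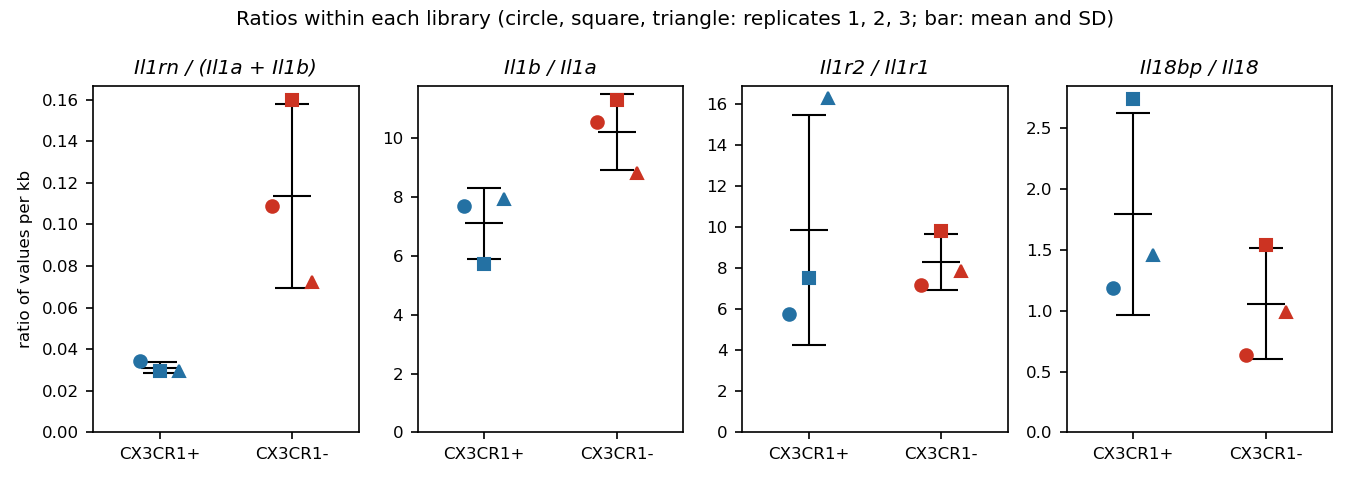
Ratios of normalized values per kb within each library (vertical axes from 0) for the antagonist over its agonists, Il1b over Il1a, the decoy over the signalling receptor, and the IL-18 binding protein over Il18, with means and SD as bars. The first ratio lies between 0.0722 and 0.160 in CX3CR1- (red) and between 0.0295 and 0.0341 in CX3CR1+ (blue) libraries, the second is apart as well, and the other 2 overlap.

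The other genes of the family and its pathway were taken from fixed lists. Of the row of 6 receptor genes on chromosome 1, the first and second, Il1r2 and Il1r1, were called higher in CX3CR1- cells, and the others were not called. These were Il1rl2, the IL-36 receptor, with a log2 fold change of -0.16, Il1rl1, the signalling and accessory chains of the IL-18 receptor Il18r1 (-0.34) and Il18rap (0.74). Of the 6 other receptors of the list, 4 were tested and none was called by limma, and 0 of the 4 had an unadjusted p under 0.05. Il1rapl2 had a log2 fold change of -0.13, and Sigirr and Il1rapl1 were under the minimum mean, with Sigirr at 6.58 to 22.3 in CX3CR1- and at 0 to 1.33 in CX3CR1+ libraries and Il1rapl1 at 0.769 to 32.5 and at 0 to 2.14. Of 5 other ligands, the epithelial cytokine Il36g (listed as Il1f9) was tested, at 11.5, 21.5 and 21.9 in CX3CR1- and 41.2, 27.1 and 25.5 in CX3CR1+ libraries (log2 fold change -0.76, adjusted p = 0.258 from limma). Il1f10, Il36a, Il36b and Il36rn were not found among the 26110 genes.

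Of 14 tested genes of receptor-proximal signalling, 3 were called lower in CX3CR1- cells by limma and none higher. Over all tested genes, 8.15% were called lower and 12.2% higher. At an unadjusted p under 0.05, 6 genes of the list were lower and 0 higher. The share of all tested genes at that level is not given here. Irak2, a kinase that sustains MyD88 signalling, differed by -1.63 on the log2 scale (adjusted p = 0.000326 from limma), and the inhibitors Tollip and Irak3 differed by -1.45 (adjusted p = 0.000981) and -1.10 (adjusted p = 0.0176). Of 12 genes of the IkB kinase and NF-kB list, 3 were called lower and none higher, with 8 lower and 1 higher at an unadjusted p under 0.05. All 3 called genes restrain or shape NF-kB, namely the atypical inhibitor Nfkbiz (-1.56), the deubiquitinase Tnfaip3 (-1.35) and the inhibitor Nfkbib (-1.24). The medians of both lists were -0.49 and -0.85 on the log2 scale, beside -0.0035 over all tested genes.

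The list of proteases and pores for maturation and release had 10 genes that were tested and are reported. Of these, 3 were called higher and 2 lower, beside 12.2% and 8.15% of all tested genes. Nlrp3, the sensor of the inflammasome that activates caspase-1, was at 560 ± 53.2 in CX3CR1- and 3522 ± 701 in CX3CR1+ libraries (SD, n = 3 each), a log2 fold change of -2.64 (adjusted p = 8.50e-06 from limma). Casp4, the caspase of the noncanonical inflammasome, was lower as well (-1.08). The calpains Capn2 (1.87) and Capn1 (1.01), of the protease family that cleaves the IL-1 alpha precursor, were higher, as was the pore-forming protein Gsdme (1.12).

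Among genes that IL-1 is known to induce, 6 were tested. In CX3CR1- cells 4 were called lower and 1 higher, beside 8.15% and 12.2% of all tested genes. The neutrophil chemokine Cxcl2 was at 2929 ± 475 in CX3CR1- and 24396 ± 6345 in CX3CR1+ libraries (SD, n = 3 each), a log2 fold change of -3.04. The monocyte chemokine Ccl2 (-2.92), the prostaglandin synthase Ptgs2 (-2.55) and the chemokine Cxcl1 (-2.43) were lower as well, with adjusted p-values of at most 0.00229 from limma. Il6, the cytokine of the acute phase, went the other way, from 22.0 ± 8.74 in CX3CR1+ to 229 ± 96.5 in CX3CR1- libraries (SD, n = 3 each), a log2 fold change of 3.31 (adjusted p = 0.000249 from limma).

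**Figure D5:**
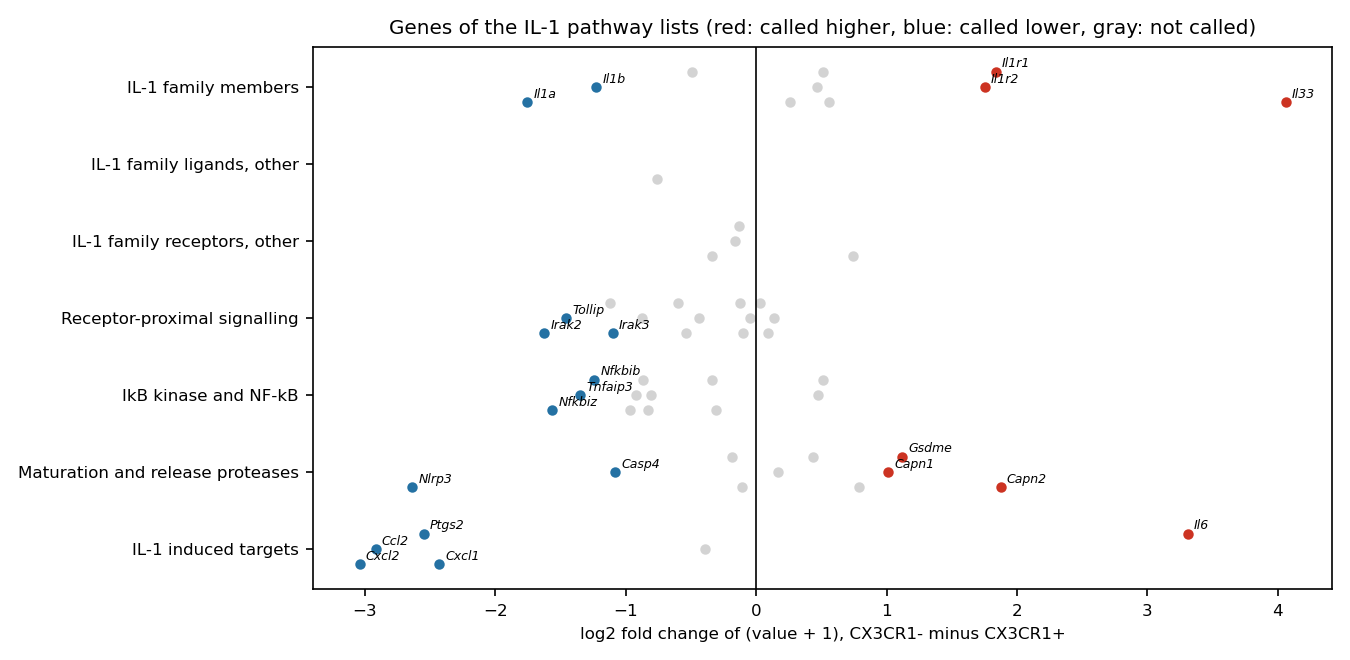
Log2 fold change of value + 1 (horizontal axis, CX3CR1- minus CX3CR1+) of every tested gene in the members and the 6 pathway lists (rows), with called genes named. The called genes of both signalling lists lie left of 0 (3 each), and the IL-1 induced targets lie at -3.04 to -2.43 apart from Il6 at 3.31 and 1 gene that was not called.

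The tested genes whose values moved most like a member were ranked by Euclidean distance of the log2(value + 1) values, centred per gene, over the 6 libraries. For Il1b these were Gna13 (distance 0.124), Slamf7 (0.182) and Cd40 (0.251), and for Il1a they were Id2 (0.346), Pcyt1a (0.431) and 1700120C14Rik (0.434). Neither of this neighbouring pair was among the 3 nearest genes of the other. For Il1rn they were Nphs1 (0.194), Mrps17 (0.272) and Krt26 (0.284), and for Il18 they were Gm37268 (0.215), Cnr2 (0.235) and Gm42629 (0.265). All distances rest on 6 libraries of 2 populations.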

How the data were processed

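RNA was sequenced from 6 libraries of sorted ME cells, 3 of each population. The authors pseudoaligned 75 bp single reads to the mouse transcriptome (mm10, GENCODE release M16) with Kallisto, imported estimated counts with tximport and applied DESeq2 normalization. The deposited unit is therefore a normalized signal per gene, and no count model was used, since only 42.6 to 44.7% of the values above 0 were whole multiples of a library's smallest step (tolerance 0.01 reads). That step gave the approximate reads. The library kit does not mark strand. The labels give no batch and no pairing.

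Groups were compared two-sided in limma 3.58.1 (R 4.3.3), by lmFit and then eBayes with a trend on intensity. Single genes also had an exact two-sided permutation test. The test was checked on simulated data. Precision is given as the SD over 3 libraries. Values per kb, overlaps and shared 31-mers came from GENCODE release M21 for GRCm38, and promoters from RefSeq. Matplotlib 3.10.9 drew the plots.

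The members and the 24 gene lists were chosen with earlier results of these data known. All members were named, with every gene of both lists of other ligands and receptors, at most 4 called genes per direction of the other pathway lists, and the 3 nearest patterns of 4 members. One gene of the protease list is not reported here. Cx3cr1 was named as the sort marker, Kit as a gene shared by marker lists, and Il1bos, Gm14023, Gm37347, Gm38070 and Numa1 as transcripts that overlap a member. Other annotated transcripts that overlap Il18, Il1rap or Il1r2 were not named. Alternatives were pseudocounts of 0.5 and 10, no filter, a minimum mean of 50, median-of-ratios or quantile normalization, no intensity trend, library quality weights, and leaving out each library. Scaling to the nuclear total and a block of adjacent library numbers were alternatives chosen after seeing the data.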

Additional observations from a re-analysis of the deposited data

How the results depend on the processing

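The members called higher fell from 3 to 1 with a mean of at least 50, which leaves Il33 and Il1r1 untested. Leaving out each library in turn gave 1 to 3 members called higher and 2 called lower, and the single call came without CX3CR1- replicate 3, where Il33 dropped under the minimum mean and Il1r2 lost its call. After quantile normalization 1 member was called lower, since Il1b was at -0.70, and Il18 turned to -0.10. Il18 also turned without CX3CR1- replicate 1 (-0.046) and without CX3CR1+ replicate 2 (-0.028), and leaving out libraries moved it between -0.046 and 0.46. Over all genes, 2413 were called with a mean of at least 50, of them 1232 higher, against 3628 and 2177. Quantile normalization gave 1716 higher and 1674 lower, and scaling to the nuclear total 2521 and 1113, so the balance of directions over all genes moved with the scaling. Leaving out libraries gave 2771 to 3869 calls, 1724 to 2263 of them higher. The log2 fold change of Il1a stayed between -2.02 and -1.49 and that of Il1r1 between 1.43 and 2.04, and both were called in every alternative that tested them. Il1rl1 was called in none, with adjusted p-values from 0.0502 to 0.359. The median of all tested genes shifted by -0.15 under quantile normalization and to 0.17 when scaled to the nuclear total, which was chosen after the data had been seen and changed no call of a member. Levels per kb of Il1rn rose to 587 in CX3CR1- and 392 in CX3CR1+ cells with the longest coding transcript. Depth limits Il33, whose CX3CR1+ libraries held 3 reads or fewer. The labels name no pairs, but each CX3CR1- library has a number next to that of 1 CX3CR1+ library, which makes 3 pairs. A replicate block of these pairs, added after the data had been seen, gave 3610 calls over all genes (2165 higher) and the same counts of members, 3 higher and 2 lower. The adjusted p-values from limma were then 0.0985 for Il1rn, 0.259 for Il18bp, 0.00015 for Il1b and 0.0128 for Il33. The deviations of adjacent libraries from their group means correlated at 0.104, 0.038 and 0.014 across genes, against -0.083 to 0.040 for the other pairings. Such small values cannot decide whether the libraries were paired. The main comparison used no pairs because the labels name none.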

Other observations

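Several other marker lists held genes that were called between the populations, beside 12.2% higher and 8.15% lower over all tested genes. By the limma call, 7 of 8 genes of mature dendritic cells, 5 of 7 of monocytes, 6 of 7 of B and plasma cells and 2 of 2 of eosinophils were higher in CX3CR1- cells. Of endothelial genes, 6 of 8 were higher and 1 was lower. Of enteric glia and neuron genes 3 of 7 were higher, of mesothelial genes 2 of 4 and of interstitial cells of Cajal 1 of 4. The called gene of interstitial cells of Cajal was Kit, which is also on the list of conventional dendritic cells. No smooth muscle gene of 6 was called in either direction, and 0 had an unadjusted p under 0.05. Of T and NK cell genes, 3 were tested, 1 of them higher and 1 lower. Of neutrophil genes, 3 were tested and 1 was lower, and the others were not found among the 26110 genes. Of 8 transcripts of dying and stressed cells, 2 were lower and none higher, with 4 lower and 0 higher at an unadjusted p under 0.05.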
